A study of Homo sapiens with 9 samples.

Results

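The collagen genes described here are the probe sets that carried a single gene symbol made of COL, a number, A and a number. They comprised 45 probe sets for 43 genes, of 18417 genes with a single symbol on the array. By class they were 11 fibrillar chains, 6 basement membrane chains of type IV, 10 FACIT chains (fibril-associated collagens with interrupted triple helices) and 16 other chains. COL11A2 had 3 probe sets, 2 of them with identical values, and 1 further probe set, which named COL1A2 together with a second gene, was left out. COL17A1 is not analysed here.

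RNA came from H9-TCF7L1, a derivative of the established human embryonic stem cell line H9 in which doxycycline (Dox) switches on a TCF7L1 transgene. TCF7L1 is a TCF/LEF factor that mostly represses targets of Wnt signalling. The 3 groups, of 3 arrays each, were cells left untreated in mTeSR1, a medium that maintains pluripotency, cells kept 48 h in PS medium, a primitive streak differentiation medium, and cells kept 48 h in PS medium with Dox at 1 ug/ml for 48 h. All groups carried the transgene, and no group received Dox in mTeSR1 or without the transgene, so the agent and the transgene it switches on cannot be told apart here. The labels name a single line and give no separate cultures for the replicates, so a p-value here rests on the spread among arrays, and that spread may be technical.

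Collagens are secreted or membrane-bound proteins whose chains wind into triple helices, either from identical chains or from chains of several genes of 1 type. Fibrillar collagens form the banded fibrils of connective tissue, type IV collagen forms the sheet-like network of basement membranes, and FACITs sit on the surface of fibrils. Pluripotent cells grow as an epithelium on a basement membrane, and cells that pass through the primitive streak leave that epithelium and enter a matrix between the germ layers.

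TCF7L1 itself was read first. Untreated arrays had deposited intensities of 3718, 3878 and 3572, and PS arrays had 1275, 1542 and 1611. With Dox they were 13100.2 and 12433 in replicates 1 and 2 but 2699 in replicate 3, which was 1.83 times the mean of the PS arrays and 0.725 times the mean of the untreated arrays. The library labelled Dox replicate 3 therefore stood apart in the induced gene, and the called collagen changes with Dox against PS medium, the chain ratios and the list counts are given below with and without it. Array medians ran from 200.4 to 216.5, and arrays of 1 group correlated across genes at 0.9889 to 0.9968. For arrays, the number of them limits the precision.

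The first question was which collagen genes changed when cells left pluripotency medium for PS medium. In PS medium 11 of the 43 collagen genes rose and 10 fell (limma, adjusted p under 0.05), or 25.6% and 23.3%, where 14.2% of all genes rose and 15.7% fell (29.8% in either direction). At least 2-fold changes were reached by 5 that rose and 3 that fell, against 3.02% and 2.62% of all genes. The median change was -0.01 on the log2 scale for the collagen genes and -0.01 for all genes. All log2 changes are on the log2(intensity + 16) scale, which understates the change of dim genes. All 43 were tested, since no filter on dim genes was applied, and 39 reached an intensity of 64. The 4 collagen genes that stayed under an intensity of 64 on every array were COL6A5, COL8A1, COL10A1 and COL28A1. RNA was taken from whole cultures, so fewer cells of a type and less RNA per cell cannot be told apart.

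**Figure D1:**
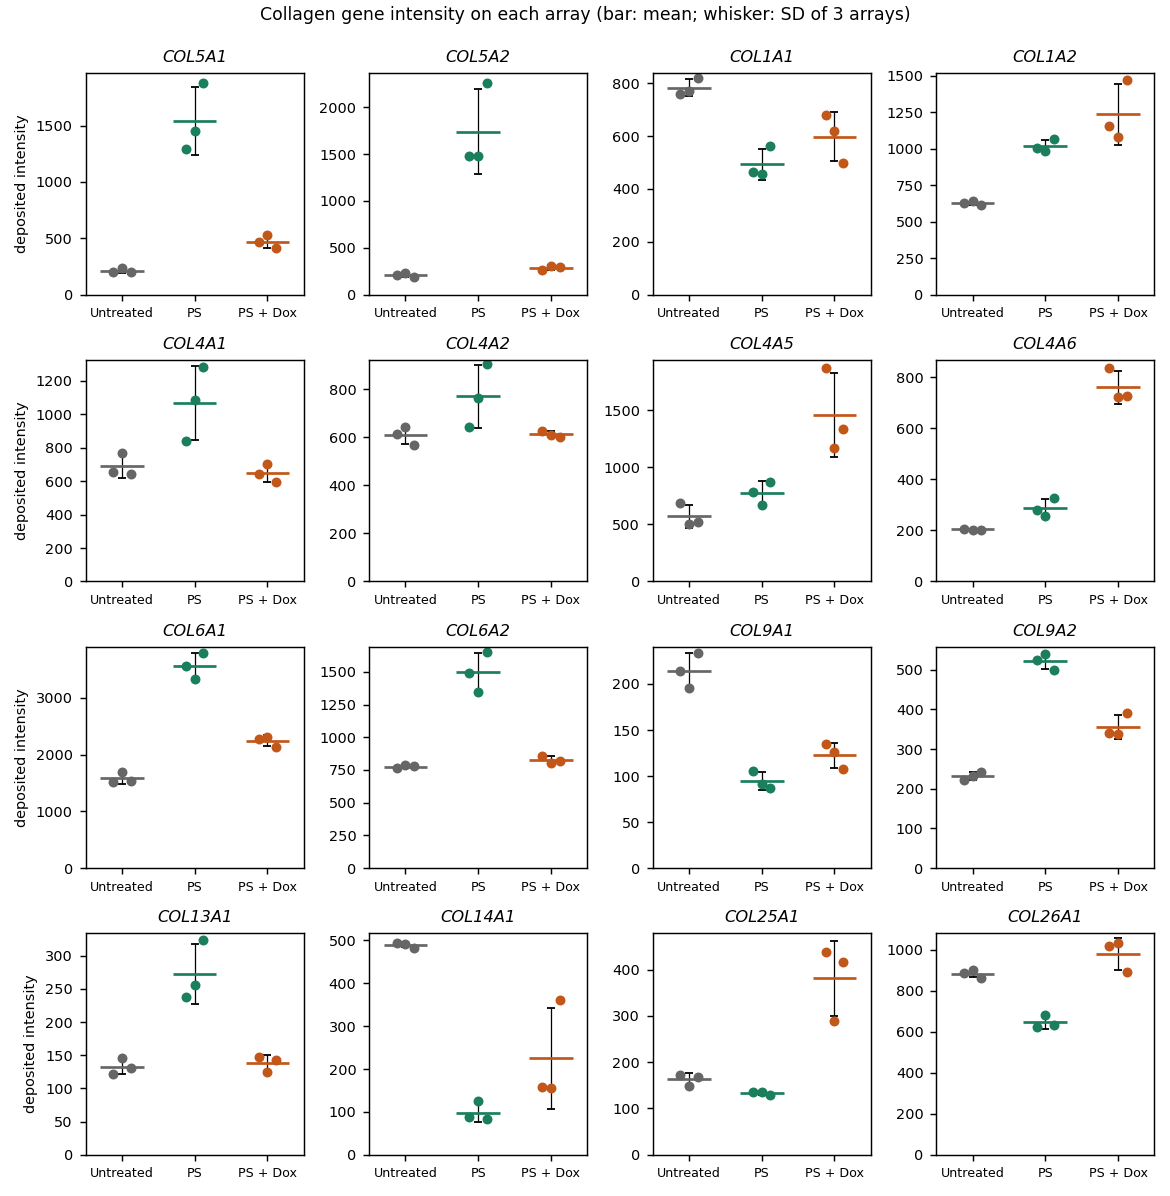
Deposited intensity (linear axes from 0, 1 panel per gene) of 16 collagen genes on each of the 9 arrays: points are arrays, bars are means of 3 and whiskers are SDs, for untreated cells, PS medium and PS medium with Dox. COL5A1 and COL5A2 are highest on the 3 PS arrays (from 1295 and 1478 up), while COL4A5, COL4A6 and COL25A1 are highest with Dox.

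Among the fibrillar chains COL5A1 and COL5A2, of type V, moved most. Type V collagen is a minor fibril component that starts fibrils and limits their thickness. COL5A2 measured 209, 232 and 185 on the untreated arrays, 1479.7, 1478 and 2257 on the PS arrays, and 262, 309 and 295 on the Dox arrays. COL5A1 measured 199.6, 237 and 201 on the untreated arrays, 1295, 1452 and 1880 on the PS arrays, and 472, 527 and 414 on the Dox arrays. For both chains the PS arrays lay above all others, and the Dox arrays lay above the untreated arrays without overlap. In PS medium COL5A2 rose by 2.95 (SE 0.16, 7.74-fold, limma adjusted p = 3.7e-07) and COL5A1 by 2.76 (SE 0.14, 6.78-fold, limma adjusted p = 1.8e-07) on the log2 scale. The remaining type V chain, COL5A3, stayed between 136 and 178 on all arrays, with a log2 change of -0.07 in PS medium (SE 0.08, limma adjusted p = 0.573).

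The promoter of COL5A1 is shown because this gene had the largest rise of the collagen genes that the RefSeq promoter listing (GRCh38.p14) held, COL5A2 not being among them. The sequence covers the 250 bases before the start site at chr9:134641553-134641802, plus strand, and the capitals mark the letters CCGCCC, the reverse of the GC box GGGCGG.
COL5A1: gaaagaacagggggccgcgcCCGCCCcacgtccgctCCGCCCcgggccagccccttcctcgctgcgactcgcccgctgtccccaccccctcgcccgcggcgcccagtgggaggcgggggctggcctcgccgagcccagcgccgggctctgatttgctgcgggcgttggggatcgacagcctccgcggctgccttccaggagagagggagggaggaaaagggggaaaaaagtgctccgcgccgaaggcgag
The window held 2 such GC boxes and no match to the TCF/LEF core CTTTGA, its variant CTTTGT, the TATA box TATAAA or the CCAAT box.

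The chains of type I collagen, the main collagen of bone, skin and tendon, moved in opposite directions. COL1A2 measured 632, 639.96 and 614 on the untreated arrays, 1006, 981 and 1065 on the PS arrays, and 1154, 1083 and 1474 on the Dox arrays. COL1A1 measured 759, 769.75 and 818 on the untreated arrays, 463, 457 and 562 on the PS arrays, and 679, 619 and 497 on the Dox arrays. The untreated and PS arrays did not overlap for either gene. In PS medium COL1A2 rose by 0.65 (SE 0.11, 1.57-fold, limma adjusted p = 9.2e-04) and COL1A1 fell by 0.68 (SE 0.11, 1.60-fold, limma adjusted p = 9.6e-04). COL2A1, the cartilage fibril chain, fell by 0.31 (SE 0.09, limma adjusted p = 0.0199), a call that was lost without untreated replicate 2 or 3 or PS replicate 2 or 3. COL3A1, the fibril chain of skin and vessels and the genomic neighbour of COL5A2, measured 113 to 143 on all arrays and showed a log2 change of -0.02 (SE 0.08, limma adjusted p = 0.913). The cartilage fibril chains COL11A1 and COL11A2 and the fibrillar chains COL24A1 and COL27A1 were not called either, with log2 changes from -0.07 to 0.08.

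Of the basement membrane chains, 2 of 6 rose in PS medium and none fell by limma (0 also at an unadjusted p under 0.05). COL4A1, which with COL4A2 makes the network found under most epithelia, measured 655, 771 and 642 on the untreated arrays, 838, 1087 and 1280.5 on the PS arrays, and 645, 700.1 and 594 on the Dox arrays. The PS arrays were above both other groups without overlap, and the rise in PS medium was 0.58 (SE 0.13, 1.49-fold, limma adjusted p = 0.00685). COL4A2 measured 614, 642.3 and 567 on the untreated arrays, 642.1, 763 and 905 on the PS arrays, and 626, 610.4 and 603 on the Dox arrays. PS replicate 1 was level with the highest untreated array and the other PS arrays lay above it, and the log2 change of 0.29 did not pass the test (SE 0.10, limma adjusted p = 0.0548). Without PS replicate 1 it was 0.40 (limma adjusted p = 0.0107), and without PS replicate 3 it was 0.18 (limma adjusted p = 0.167). COL4A2 was also called on the deposited scale, with median centring and with the filter on dim genes (limma adjusted p = 0.0491, 0.0448 and 0.0473). The same held with the replicate number as a block (limma adjusted p = 0.0443). COL4A6, a chain of a type IV network found in smooth muscle and some epithelia, rose by 0.49 (SE 0.09, 1.40-fold, limma adjusted p = 0.00269). Its partner COL4A5 had a log2 change of 0.41 (SE 0.18, limma adjusted p = 0.112) with overlapping arrays. It was called without Dox replicate 1, with median centring and with the 2 groups alone (limma adjusted p = 0.0484, 0.0474 and 0.0479). With the replicate number as a block, COL4A5 was called as well (limma adjusted p = 0.0142). Without PS replicate 3 its change was 0.33 (limma adjusted p = 0.261). COL4A3 and COL4A4, chains of the kidney filter, measured 94.4 to 114 and 61.4 to 77.5 on all arrays, and neither was called.

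Type IV genes lie head to head in pairs with a shared stretch of DNA between their start sites. The gap is 126 bases for COL4A1 and COL4A2, 379 for COL4A6 and COL4A5, and 418 for COL4A4 and COL4A3 in the RefSeq promoter listing. The whole stretch between COL4A2 and COL4A1 and the COL4A5 side of the stretch it shares with COL4A6 are shown, because these pairs held called chains. The first is chr13:110307158-110307283 and the second is the 250 bases before the COL4A5 start at chrX:108439588-108439837, both GRCh38.p14, plus strand. Capitals mark CCAAT boxes (CCAAT or, reversed, ATTGG), the GC box GGGCGG and TCAAAG, the reverse of the TCF/LEF core.
COL4A2 and COL4A1: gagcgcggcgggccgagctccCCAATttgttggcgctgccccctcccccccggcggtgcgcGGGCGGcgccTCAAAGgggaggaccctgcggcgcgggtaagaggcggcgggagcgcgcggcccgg
COL4A5: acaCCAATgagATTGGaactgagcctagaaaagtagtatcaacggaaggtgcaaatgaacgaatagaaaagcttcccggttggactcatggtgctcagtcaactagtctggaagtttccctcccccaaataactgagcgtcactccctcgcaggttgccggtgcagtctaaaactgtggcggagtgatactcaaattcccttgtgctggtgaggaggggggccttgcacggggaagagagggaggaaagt
The first stretch held 1 of each of these letters, and the second held 2 CCAAT boxes and no TCF/LEF core. Over all listed windows of COL4A6, a GC box, the SMAD letters CAGACA and a CCAAT box were matched. Whether they lie in the part of the shared stretch not shown was not recorded. In PS medium and then with Dox, the log2 changes were 0.58 and -0.70 for COL4A1 and 0.29 and -0.32 for COL4A2. They were 0.41 and 0.88 for COL4A5 and 0.49 and 1.34 for COL4A6. In the pair COL4A4 and COL4A3 the partners differed in sign in both comparisons, at -0.09 and 0.05 for COL4A4 and 0.08 and -0.04 for COL4A3, none of them called.

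Of the 10 FACIT chains, 1 rose and 4 fell in PS medium. COL14A1, a chain on the surface of type I fibrils, measured 495, 491 and 483 on the untreated arrays, 87.3, 125 and 83.1 on the PS arrays, and 158, 156 and 360.4 on the Dox arrays. The groups did not overlap, and Dox replicate 3 lay far above the other Dox arrays. The fall in PS medium was 2.16 on the log2 scale (SE 0.26, 4.47-fold, limma adjusted p = 1.0e-04). COL12A1, which also decorates type I fibrils, measured 93.7, 137 and 115 in untreated cells, against 38.1, 35.1 and 40.7 in PS medium. It fell by 1.23 (SE 0.22, 2.34-fold, limma adjusted p = 0.00160) and measured, with Dox, 39.4, 58.3 and 23.6.

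Type IX collagen, the FACIT of cartilage fibrils, is built from 3 different chains, and its chains moved apart. COL9A1 measured 214, 196 and 233 on the untreated arrays, 105, 91.4 and 86.9 on the PS arrays, and 135, 126 and 108 on the Dox arrays. COL9A2 measured 223, 233 and 243 on the untreated arrays, 525, 541 and 499 on the PS arrays, and 340.4, 338 and 389.9 on the Dox arrays. No groups overlapped for either gene. In PS medium COL9A1 fell by 1.04 (SE 0.10, 2.05-fold, limma adjusted p = 2.5e-05) and COL9A2 rose by 1.13 (SE 0.09, 2.18-fold, limma adjusted p = 4.2e-06). COL9A3 measured 364 to 393 in untreated cells, against 333 to 376 in PS medium, with a log2 change of -0.10 (SE 0.07, limma adjusted p = 0.364). COL21A1 fell by 0.29 (limma adjusted p = 0.0342), which was lost without untreated replicate 2 or 3, without PS replicate 1 or 2, and when these 2 groups were fitted alone. The remaining FACIT chains COL16A1, COL19A1, COL20A1 and COL22A1 were not called, with log2 changes from -0.01 to 0.18.

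Of the 16 other chains, 5 rose and 4 fell in PS medium. Type VI collagen forms beaded filaments around cells and is built from COL6A1, COL6A2 and a partner chain, which can be COL6A3, COL6A5 or COL6A6. COL6A1 measured 1515, 1688 and 1542 on the untreated arrays, 3554, 3329 and 3790.3 on the PS arrays, and 2284, 2315 and 2130.3 on the Dox arrays. COL6A2 measured 762, 785 and 779 on the untreated arrays, 1490.2, 1349 and 1649 on the PS arrays, and 859, 806 and 821 on the Dox arrays. On the deposited scale the 3 groups did not overlap for either gene, but after normalization the Dox and untreated arrays of COL6A2 overlapped. COL6A1 rose by 1.13 (SE 0.07, 2.19-fold, limma adjusted p = 6.2e-07) and its genomic neighbour COL6A2 by 0.89 (SE 0.08, 1.86-fold, limma adjusted p = 1.2e-05).

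The partner chains of type VI collagen differed among themselves. COL6A3 measured 143, 133 and 148 on the untreated arrays, 97.1, 85.0 and 90.3 on the PS arrays, and 86.9, 70.2 and 82.3 on the Dox arrays. It fell by 0.52 (SE 0.08, 1.44-fold, limma adjusted p = 4.7e-04). COL6A6 measured 47.1, 48.4 and 65.4 on the untreated arrays, 154, 117 and 462 on the PS arrays, and 126, 101 and 142 on the Dox arrays. Its rise of 1.70 (SE 0.36, 3.24-fold, limma adjusted p = 0.00448) leaned on PS replicate 3, without which it was 1.15 (2.22-fold). COL6A5, the neighbour of COL6A6, rose by 0.77 (SE 0.15, limma adjusted p = 0.00262), all of its values being dim at 15.8 to 51.7.

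COL13A1, a transmembrane collagen of the neuromuscular junction, measured 122, 145 and 131 on the untreated arrays, 238, 256 and 324 on the PS arrays, and 147, 125 and 142 on the Dox arrays. Its PS arrays stood above both other groups, which overlapped, and the rise in PS medium was 0.98 (SE 0.12, 1.97-fold, limma adjusted p = 9.5e-05). COL18A1, the basement membrane collagen from which endostatin is cut, measured 854, 913 and 801 on the untreated arrays, 626, 659 and 554 on the PS arrays, and 575, 567 and 547 on the Dox arrays. It fell by 0.51 (SE 0.09, 1.42-fold, limma adjusted p = 0.00109). COL26A1, a secreted collagen-like protein, measured 885, 900.02 and 864 on the untreated arrays, 624, 682 and 634 on the PS arrays, and 1021, 1031 and 892 on the Dox arrays. It fell by 0.47 (SE 0.07, 1.39-fold, limma adjusted p = 6.2e-04), and the PS arrays were the lowest of the 3 groups. COL8A2, a chain of the hexagonal network under the corneal endothelium, fell by 0.36 (limma adjusted p = 0.0258), a call lost without any 1 untreated array or without PS replicate 2 or 3. COL7A1, the anchoring fibril chain of skin, and COL8A1, COL10A1, COL15A1, COL23A1 and COL28A1 were not called, with log2 changes from -0.06 to 0.06.

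**Figure D2:**
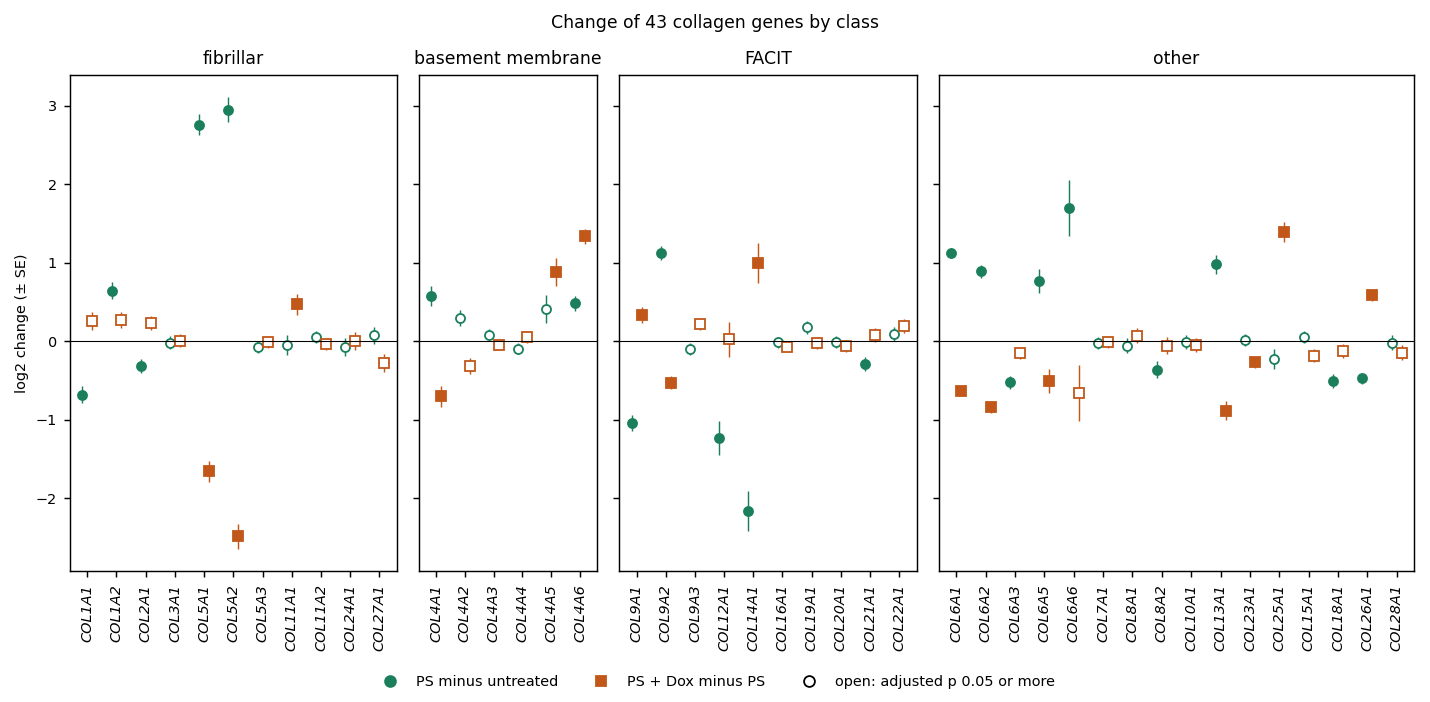
Log2 change with its standard error for each of the 43 collagen genes, grouped by class: circles are PS medium minus untreated cells, squares PS medium with Dox minus PS medium, and open symbols did not pass limma's adjusted p of 0.05. COL5A2 and COL5A1 have the largest rises in PS medium (2.95 and 2.76) and COL14A1 the largest fall (-2.16), and COL5A2 and COL5A1 have the largest falls with Dox (-2.48 and -1.66).

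The second question was which collagen genes differed when TCF7L1 was induced during the time in PS medium. With Dox 7 of the 43 collagen genes rose and 9 fell relative to PS medium alone, or 16.3% and 20.9%, where 8.91% of all genes rose and 8.44% fell (17.3% in either direction). At least 2-fold changes were reached by 2 in each direction, against 1.78% and 1.55% of all genes. The median change was -0.04 on the log2 scale for the collagen genes and 0.00 for all genes. Without Dox replicate 3 the test called 16 collagen genes, 15 of them shared, with COL6A5 lost and COL1A1 gained. The share of all genes called was then 16%. This comparison shares its PS arrays with the one before, so the changes of a gene in the 2 comparisons are not independent, and they are given side by side only.

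The largest falls with Dox were those of COL5A2 and COL5A1, while the type V chain COL5A3 had a log2 change of -0.01 (limma adjusted p = 0.955). COL5A2 fell by 2.48 (SE 0.16, 5.60-fold, limma adjusted p = 4.4e-06) and COL5A1 by 1.66 (SE 0.14, 3.15-fold, limma adjusted p = 2.0e-05). These were -2.50 and -1.58 without Dox replicate 3. Among the type VI chains COL6A2 fell by 0.83 (SE 0.08, 1.78-fold, limma adjusted p = 4.7e-05) and COL6A1 by 0.63 (SE 0.07, 1.55-fold, limma adjusted p = 9.0e-05). COL6A2 was at -0.83 and COL6A1 at -0.59 without Dox replicate 3. COL6A5 fell by 0.51 (limma adjusted p = 0.0390), a call lost without untreated replicate 1, PS replicate 2 or 3, or Dox replicate 1 or 3, with a log offset of 1 and with the 2 groups alone. COL6A3 had a change of -0.15 (limma adjusted p = 0.259) and COL6A6 of -0.65 (SE 0.36, limma adjusted p = 0.276), which was -0.11 without PS replicate 3.

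COL13A1 fell by 0.88 with Dox (SE 0.12, 1.84-fold, limma adjusted p = 4.0e-04), COL4A1 by 0.70 (SE 0.13, 1.63-fold, limma adjusted p = 0.00366) and COL9A2 by 0.53 (SE 0.09, 1.44-fold, limma adjusted p = 0.00157). The corresponding values without Dox replicate 3 were -0.89, -0.65 and -0.59. COL4A2 showed -0.32 (SE 0.10, limma adjusted p = 0.0612) with arrays that did not overlap, and it was called without PS replicate 1 (-0.43, limma adjusted p = 0.0137) and with the replicate number as a block (limma adjusted p = 0.0470). COL23A1, a transmembrane collagen, measured 549.6, 568 and 599 in PS medium and 459, 452 and 514 with Dox. Its fall of 0.27 (limma adjusted p = 0.0286; -0.33 without Dox replicate 3) was lost without untreated replicate 1, any PS array, or Dox replicate 1 or 2, and with the 2 groups alone.

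COL25A1, a transmembrane collagen needed for the innervation of muscle, had the largest rise with Dox. It measured 173, 148 and 168 on the untreated arrays, 135, 136 and 129 on the PS arrays, and 438, 289 and 417 on the Dox arrays. The Dox arrays lay above both other groups, and the rise was 1.39 (SE 0.13, 2.63-fold, limma adjusted p = 3.8e-05), or 1.32 without Dox replicate 3. Between untreated cells and PS medium its change was -0.23 (limma adjusted p = 0.227).

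COL4A6 measured 206, 203 and 202.7 on the untreated arrays, 279, 256 and 326 on the PS arrays, and 836, 721 and 724 on the Dox arrays. COL4A5 measured 687, 508 and 519 on the untreated arrays, 784, 669 and 875 on the PS arrays, and 1871, 1165 and 1336 on the Dox arrays. The Dox arrays were the highest for both chains, with no overlap with PS medium. COL4A6 rose by 1.34 (SE 0.09, 2.53-fold, limma adjusted p = 7.1e-06) and COL4A5 by 0.88 (SE 0.18, 1.84-fold, limma adjusted p = 0.00568). Leaving out Dox replicate 3 gave rises of 1.37 and 0.92.

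COL26A1 rose by 0.59 with Dox (SE 0.07, 1.5-fold, limma adjusted p = 2.8e-04), or by 0.64 without Dox replicate 3. COL14A1 rose by 1.00 (SE 0.26, 2.0-fold, limma adjusted p = 0.0216), and this value leaned on Dox replicate 3: without it the rise was 0.63 (limma adjusted p = 0.0160). The call of COL14A1 was lost without PS replicate 1 (limma adjusted p = 0.0775) or PS replicate 3 (0.0605), and when the 2 groups were fitted alone (0.0608). COL11A1, a chain of the cartilage fibril core related to type V, measured 149.6, 164.6 and 164.9 on the untreated arrays, 136, 145 and 172 on the PS arrays, and 253, 218 and 178 on the Dox arrays. Its rise of 0.47 (SE 0.13, limma adjusted p = 0.0296; 0.61 without Dox replicate 3) was lost without PS replicate 1 or 2 or Dox replicate 1 or 2, and with the 2 groups alone. COL9A1 rose by 0.34 (SE 0.10, limma adjusted p = 0.0448; 0.43 without Dox replicate 3), which was lost without any 1 array other than Dox replicate 3, on the deposited scale, with median centring, with a log offset of 64 and with the 2 groups alone. COL1A1 and COL1A2 had changes of 0.26 and 0.27 (limma adjusted p = 0.160 and 0.115), COL1A1 being called without Dox replicate 3 (0.37, limma adjusted p = 0.0293) and COL1A2 without Dox replicate 2 (0.37, limma adjusted p = 0.0356). With the replicate number as a block, COL27A1 (-0.28, limma adjusted p = 0.0195) and COL9A3 (0.22, limma adjusted p = 0.0449) were also called. Of the other chains called in PS medium, COL2A1 (0.24), COL12A1 (0.02), COL18A1 (-0.12), COL8A2 (-0.05) and COL21A1 (0.08) did not pass the test with Dox. The changes of the remaining collagen genes that were not called lay between -0.18 (COL15A1) and 0.20 (COL22A1).

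Motif letters in the promoters were compared between the collagen genes and all genes of the promoter listing. That listing is not limited to the 18417 genes tested on the array, so its shares have another base than those above. Matches were sought over the 250 bases before the start site on both strands, counting a gene once if any of its windows matched. Of the 43 collagen genes, 31 were in the promoter listing and 12 were not. The TCF/LEF core CTTTGA was in the windows of 8 of the 31 (25.8%) and of 13.5% of 27305 genes, the 8 being COL4A1, COL4A2, COL9A1, COL10A1, COL11A2, COL13A1, COL26A1 and COL28A1, of which COL4A1 and COL4A2 share 1 match. Of these 8, with Dox 2 rose, 2 fell and 4 were not called, and of the 23 without the core 4 rose, 4 fell and 15 were not called. CTTTGT was in 4 of the 31 (12.9%, against 16.3% of all genes), the GC box GGGCGG in 21 (67.7%, against 46.2%), the CCAAT box in 10 (32.3%, against 37.0%) and TATAAA in 6 (19.4%, against 13.0%). The SMAD letters CAGACA were in 3 (9.7%, against 16.3%) and the GATA letters AGATAA in 2 (6.5%, against 11.1%). A match here describes letters and is not a binding site.

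The windows of COL13A1 and COL26A1 are shown because both held the TCF/LEF core while these genes moved in opposite directions with Dox. They are chr10:69801656-69801905 and chr7:101362625-101362874 (GRCh38.p14, plus strand), and capitals mark CTTTGA or its reverse TCAAAG and the TATA box TATAAA.
COL13A1: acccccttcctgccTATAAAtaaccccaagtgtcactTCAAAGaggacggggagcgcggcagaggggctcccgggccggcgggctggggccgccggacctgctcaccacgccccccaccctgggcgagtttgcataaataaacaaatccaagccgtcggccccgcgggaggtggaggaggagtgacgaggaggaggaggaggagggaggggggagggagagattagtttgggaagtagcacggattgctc
COL26A1: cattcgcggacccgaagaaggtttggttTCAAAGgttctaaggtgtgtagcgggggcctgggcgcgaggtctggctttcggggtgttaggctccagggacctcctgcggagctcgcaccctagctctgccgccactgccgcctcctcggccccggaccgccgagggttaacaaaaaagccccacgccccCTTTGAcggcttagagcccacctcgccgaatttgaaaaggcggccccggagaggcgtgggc
COL13A1 held the core 1 time and fell by 0.88, and COL26A1 held it 2 times, once in each orientation, and rose by 0.59.

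Chains that share a trimer were then compared within each array as the log2 ratio of their intensities, for 8 pairs of chains chosen after their values were seen. Because probe sets differ in brightness, only the change of a ratio between groups is read. With 3 arrays against 3, the exact two-sided permutation test cannot go below 0.1, and adjusted over the 16 tests its smallest value was 0.1333, so no pair could pass. The COL1A2 to COL1A1 ratio changed by 1.33 from untreated cells to PS medium with no overlap, and its change with Dox was 0.01 with overlap. The COL9A2 to COL9A1 ratio changed by 2.16 in PS medium and by -0.86 with Dox, both without overlap. The COL6A3 to COL6A1 ratio changed by -1.65 and then 0.49, again without overlap.

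Among pairs whose genes lie side by side, the COL6A2 to COL6A1 ratio changed by -0.24 in PS medium and -0.20 with Dox, without overlap. The COL4A2 to COL4A1 ratio changed by -0.28 and 0.39, also without overlap. The COL4A6 to COL4A5 ratio, of genes also side by side, changed by 0.07 with overlap (exact permutation p = 0.9) and then by 0.46 without overlap. Of the remaining pairs, the COL5A2 to COL5A1 ratio changed by 0.19 in PS medium with overlap (exact permutation p = 0.2) and by -0.83 with Dox without overlap. The COL9A3 to COL9A1 ratio changed by 0.94 without overlap and then by -0.11 with overlap (exact permutation p = 0.5). Without Dox replicate 3, an alternative chosen after seeing the data, the COL1A2 to COL1A1 change with Dox was -0.24, without overlap, in place of 0.01. The COL9A2 to COL9A1 change was then -1.03, the COL5A2 to COL5A1 change -0.92, and the other 5 lay between -0.24 and 0.45.

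**Figure D3:**
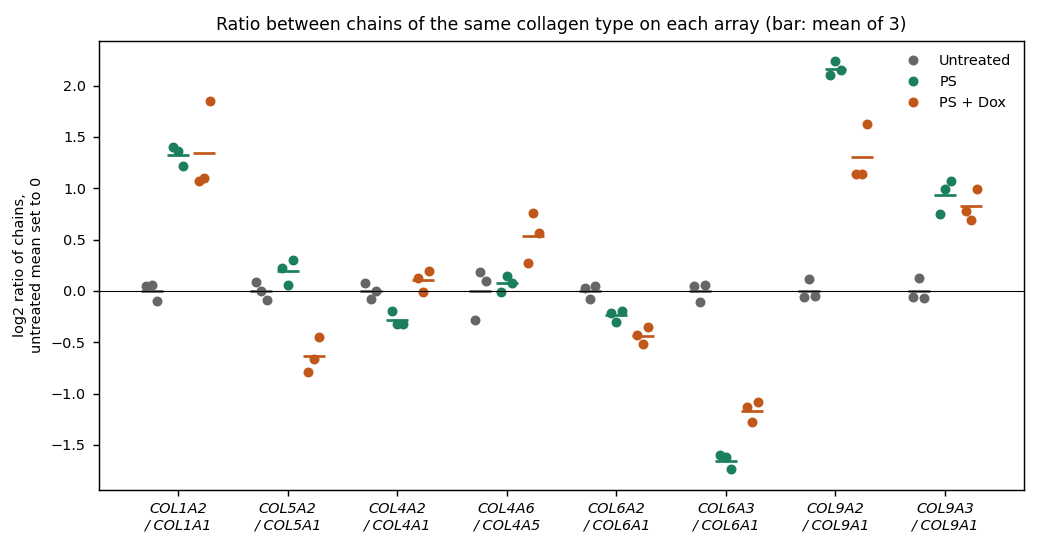
Log2 ratio of the intensities of 8 pairs of chains on each array, with the untreated mean of each pair set to 0; points are arrays, coloured by group, and bars are means of 3. The PS arrays of COL9A2 / COL9A1 stand at a mean of 2.16 and those of COL6A3 / COL6A1 at -1.65, and the COL5A2 / COL5A1 ratio is lowest on the Dox arrays.

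Cells in PS medium with Dox were also compared with untreated cells, which asks how far each collagen gene stood from its starting level. Here 10 collagen genes were higher and 8 lower, where 15.3% of all genes were higher and 14.9% lower (30.3% in either direction). At least 2-fold differences were reached by 4 that were higher and 2 that were lower, against 2.74% and 2.46% of all genes, and the median change was -0.02 for the collagen genes. Highest were COL4A6 (1.83, 3.55-fold, limma adjusted p = 2.8e-07), COL4A5 (1.29, 2.45-fold, limma adjusted p = 2.9e-04), COL25A1 (1.17, 2.24-fold, limma adjusted p = 6.2e-05) and COL5A1 (1.1, 2.15-fold, limma adjusted p = 1.4e-04). COL1A2 (0.92), COL9A2 (0.60) and COL6A1 (0.50) were higher as well. COL5A2 was higher by 0.47 (limma adjusted p = 0.0480), a call lost without untreated replicate 1 or 3, PS replicate 1 or any Dox array, on the deposited scale and with a log offset of 64. COL11A1 (0.43) and COL22A1 (0.29) were higher too, the former call lost without any 1 untreated array or Dox replicate 1 or 2, the latter without untreated replicate 1 or 2 or Dox replicate 1 or 2 and on the deposited scale.

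Lower than in untreated cells were COL12A1 (-1.21, 2.31-fold, limma adjusted p = 0.00186), COL14A1 (-1.16, 2.24-fold, limma adjusted p = 0.00581) and COL9A1 (-0.70, 1.63-fold, limma adjusted p = 4.3e-04). Without Dox replicate 3 COL14A1 was at -1.53. COL6A3 (-0.67), COL18A1 (-0.63), COL1A1 (-0.42), COL8A2 (-0.42) and COL23A1 (-0.25) were lower as well, of which COL1A1 and COL8A2 were lost without untreated replicate 3, and COL23A1 without any 1 untreated array or Dox replicate 1 or 2, on the deposited scale and with median centring. COL6A2 (0.06, SE 0.08), COL13A1 (0.10, SE 0.12), COL4A1 (-0.13, SE 0.13) and COL26A1 (0.11, SE 0.07) did not pass the test against untreated cells. COL6A6 stood at 1.04 (limma adjusted p = 0.0501) with arrays that did not overlap. It was called with the replicate number as a block (limma adjusted p = 0.0118) and with the 2 groups alone (2.1e-04). It was also called without PS replicate 2 or 3, with median centring and with a log offset of 1. Of the calls in the 3 comparisons, 18 of 21, 11 of 16 and 12 of 18 were kept under each of the 17 alternatives that tested the gene.

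The genes that make, cross-link, bind and degrade collagen were then counted from 5 lists. Beside these counts, 14.2% of all genes rose and 15.7% fell in PS medium, and 8.91% rose and 8.44% fell with Dox. No list was tested as a set, and a count near these shares is not a result about that list. Chains are hydroxylated and folded in the endoplasmic reticulum before export. Of 18 measured folding and modification genes, 8 rose (44.4%) in PS medium and none fell by limma (1 was lower at an unadjusted p under 0.05). PLOD2, a lysyl hydroxylase that sets cross-link chemistry, measured 734 to 919 in untreated cells, against 1626 to 2479 in PS medium, and rose by 1.27 (2.40-fold, limma adjusted p = 1.2e-04). The prolyl hydroxylase subunits P4HA2 and P4HA1 rose by 1.09 and 0.91 (limma adjusted p = 0.00258 and 0.0241), the P4HA1 call being lost without untreated replicate 1 or 2 or PS replicate 1 or 3.

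P3H2, a prolyl 3-hydroxylase that acts mainly on type IV collagen, measured 1474, 1976 and 1775 on the untreated arrays, 3705, 3562 and 4650.05 on the PS arrays, and 1261, 1194 and 1339 on the Dox arrays. It rose by 1.16 in PS medium (SE 0.12, limma adjusted p = 4.3e-05) and fell by 1.62 with Dox (SE 0.12, 3.08-fold, limma adjusted p = 1.1e-05), the PS arrays lying above all others. With Dox 1 gene of this list rose (5.6%), TMEM38B, an endoplasmic reticulum ion channel, by 0.42. Another 3 fell (16.7%): P3H2, the collagen-binding isomerase FKBP14 by 0.70 and the prolyl 3-hydroxylase P3H1 by 0.53. P4HA1 had a change of -0.68 with Dox (limma adjusted p = 0.115). Without Dox replicate 3 it was called, at -0.96 (1.94-fold, limma adjusted p = 0.0193).

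Of 18 genes of procollagen export, processing and cross-linking, 3 rose and 5 fell in PS medium (16.7% and 27.8%). With Dox 4 rose and 2 fell (22.2% and 11.1%). ADAMTS3, a protease that removes the amino-terminal propeptide of fibrillar procollagens, rose by 1.87 (3.66-fold, limma adjusted p = 9.6e-07) and had a change of -0.04 with Dox. LOXL1, a lysyl oxidase relative, fell by 0.67 in PS medium and rose by 0.59 with Dox. PCOLCE, an enhancer of carboxy-terminal propeptide removal, fell by 0.60 and rose by 0.37, while the tolloid protease TLL2 fell by 0.66 in PS medium. The TLL2 relative TLL1 was dim, at 25.1 to 50.3 over all arrays. With Dox TLL1 rose by 0.37, a call lost without PS replicate 2 or 3 or Dox replicate 1 or 3, on the deposited scale and with the 2 groups alone (limma adjusted p = 0.102 without Dox replicate 3). In the same comparison PCOLCE2 fell by 0.39 and the cross-linking enzyme LOXL2 by 0.51, the latter call lost without PS replicate 3 or Dox replicate 1 or 3.

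Of 10 collagen receptors, 3 rose and 2 fell in PS medium (30% and 20%), and 2 rose and 3 fell with Dox (20% and 30%). MRC2, an endocytic receptor that takes up cleaved collagen, measured 338, 333 and 319 on the untreated arrays, 1209.6, 1185 and 1824 on the PS arrays, and 908, 824 and 919 on the Dox arrays. It rose by 2.01 (4.02-fold, limma adjusted p = 2.0e-06) and fell by 0.63 with Dox (limma adjusted p = 0.00913). ITGA2, the integrin subunit that binds type I collagen in epithelia and platelets, measured 335, 309 and 297 on the untreated arrays, 99.7, 99.3 and 53.7 on the PS arrays, and 289.6, 262 and 153 on the Dox arrays. It fell by 1.73 (3.33-fold, limma adjusted p = 2.4e-04) and rose by 1.31 with Dox (2.48-fold, limma adjusted p = 0.00263), its PS arrays being the lowest. ITGA11 rose by 0.46 in PS medium and fell by 0.37 with Dox, the receptor kinase DDR1 fell by 0.37 in PS medium, and DDR2 fell by 0.73 with Dox. ADGRG1 measured 177, 156 and 332 with Dox and rose by 0.70 (limma adjusted p = 0.0447), or by 0.40 (1.32-fold) without Dox replicate 3. This call was lost without any 1 untreated array or without PS replicate 1 or 2.

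Of 18 collagen-binding matrix proteins, 6 rose and 6 fell in PS medium (33.3% each), and 4 rose and 5 fell with Dox (22.2% and 27.8%). FN1, fibronectin, measured 1430.1, 1575 and 1448 on the untreated arrays, 5493, 4672 and 5625 on the PS arrays, and 12504, 10928 and 12965 on the Dox arrays. It rose by 1.78 (3.43-fold, limma adjusted p = 1.2e-07) and by a further 1.22 with Dox (2.33-fold, limma adjusted p = 5.7e-06). MATN3, a cartilage matrix protein, rose by 1.59 (3.02-fold) and fell by 1.15 with Dox. The fibril-binding proteoglycan FMOD rose by 1.28 and fell by 1.20, the fall being lost without Dox replicate 1, and PRELP rose by 1.70, or by 0.88 without PS replicate 3, where it measured 1286 against 176 and 265 on the other PS arrays. The PRELP call was lost without any 1 untreated array. POSTN, periostin, measured 182, 178 and 785 with Dox and rose by 2.14 (limma adjusted p = 0.00722), or by 1.47 without Dox replicate 3.

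Of 15 collagen-degrading proteases and inhibitors, 5 rose and 1 fell in PS medium (33.3% and 6.7%). With Dox 2 rose and 5 fell (13.3% and 33.3%). MMP2, a gelatinase, rose by 1.40 (2.63-fold, limma adjusted p = 2.8e-07) and fell by 1.01 with Dox, and MMP14, its membrane-bound activator, rose by 1.39 (2.62-fold) and fell by 0.58. The inhibitor TIMP3 rose by 1.81 (3.51-fold) and fell by 1.06. The collagen-cleaving cathepsin CTSK rose by 0.56 and fell by 1.58 with Dox (2.99-fold, limma adjusted p = 3.6e-05), and MMP9 rose by 0.74 and fell by 0.84. MMP16 ran the other way, measuring 1216, 1171 and 1249 in untreated cells, against 352, 354 and 275 in PS medium, a fall of 1.86 (3.64-fold, limma adjusted p = 1.4e-06), with a rise of 0.74 with Dox. When the 5 lists were recounted without Dox replicate 3, an alternative also chosen after seeing the data, the numbers that rose and fell with Dox became 1 and 4 for folding and modification, 2 and 1 for processing and cross-linking, and 1 and 5 for proteases and inhibitors. Those of the receptors (2 and 3) and matrix proteins (4 and 5) were as before. In that fit 16% of all genes were called with Dox.

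**Figure D4:**
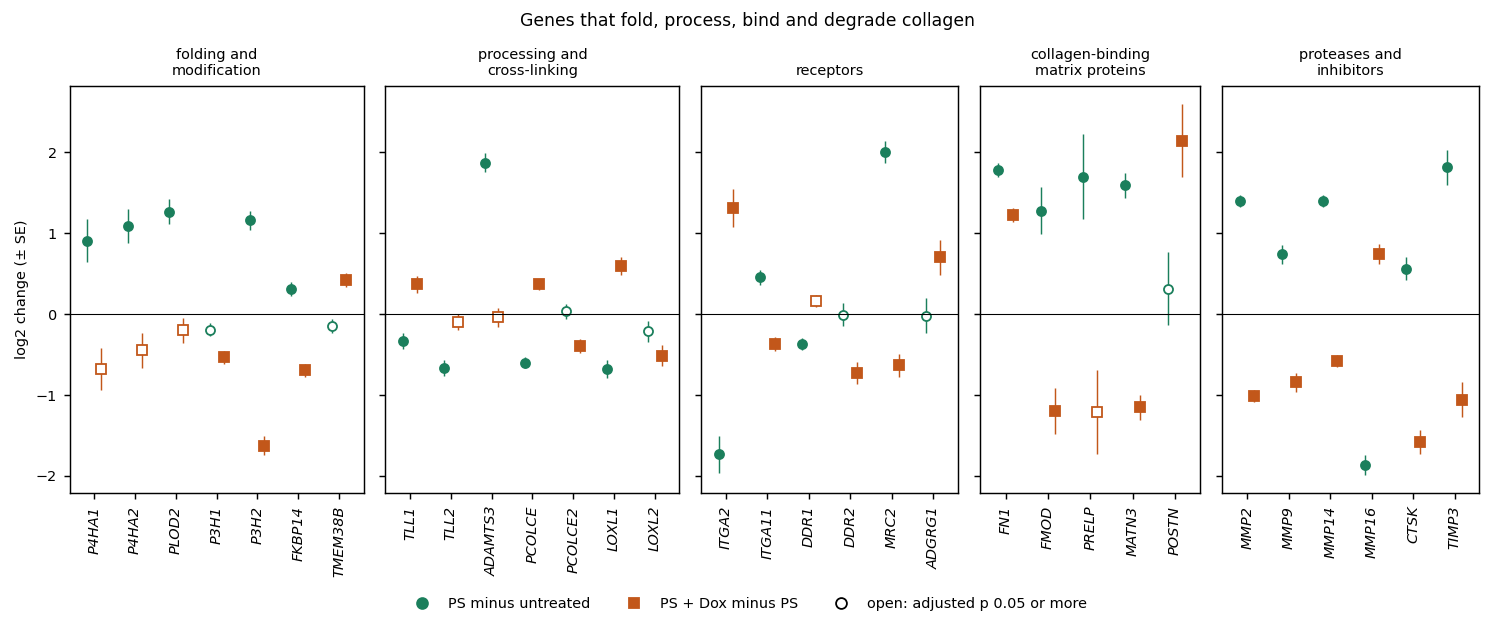
Log2 change with its standard error for the named genes of the 5 collagen pathway lists: circles are PS medium minus untreated cells, squares PS medium with Dox minus PS medium, and open symbols did not pass limma's adjusted p of 0.05. P3H2 stands at 1.16 in PS medium and at -1.62 with Dox, and FN1 has rises in both (1.78 and 1.22).

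Marker lists were read beside these results, and the part of other cell types in the collagen values was not tested. The shares of all genes that rose and fell were 14.2% and 15.7% in PS medium and 8.91% and 8.44% with Dox. All 8 primitive streak markers rose in PS medium and fell with Dox, their summed intensity being 1846 to 1923 in untreated cells, 82419 to 102662 in PS medium and 16159 to 26395 with Dox. Of 9 pluripotency markers, 7 fell in PS medium and 3 rose with Dox, with sums of 37281 to 39063, 25623 to 28685 and 32341 to 33640.4. Markers of primitive and visceral endoderm, cells that secrete much type IV collagen, rose in 4 of 8 cases in PS medium and fell in 3 with Dox, with sums of 926 to 1006, 19008 to 34793 and 5070.1 to 8600.3. Markers of amnion and trophectoderm rose in 5 of 9 cases and fell in 1 in PS medium, and rose in 6 with Dox, with sums of 2536 to 2774, 16852 to 17485 and 29289 to 33457. The streak and endoderm sums were both highest in PS medium, as were COL4A1, COL5A1 and COL5A2. The amnion and trophectoderm sum was highest with Dox, as were COL4A5, COL4A6 and COL25A1. Further chains had their highest mean in PS medium, among them COL4A2, COL6A1, COL6A2, COL9A2 and COL13A1. Others had it with Dox, among them COL1A2, COL11A1, COL22A1 and COL26A1. An endoderm sum without GATA4, its brightest marker, was added after seeing the data. It was 860 to 938 in untreated cells, 9318.5 to 13333 in PS medium and 3001.5 to 4004 with Dox. The 4 endoderm markers that rose in PS medium were GATA4, GATA6, SOX17 and FOXA2, and the other 4 were not called there. Over all arrays these others measured 212 to 282 (SOX7), 36.4 to 45.9 (AFP), 54.5 to 87.2 (TTR) and 157 to 183 (APOA1). These matches do not single out a cell type.

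Fibroblasts are a rich source of fibrillar collagen. Of 11 fibroblast markers, 1 rose and 2 fell in PS medium, and 1 rose and 2 fell with Dox (9.1% and 18.2% each time). Their summed intensity was 5450 to 5616 in untreated cells, 3100 to 3575 in PS medium and 2213 to 2828 with Dox. The fall of the sum was carried by THY1, which pluripotent cells also express: without it the other 10 markers summed to 1258 to 1319.8 in untreated cells, 1839 to 2094 in PS medium and 1377 to 2138 with Dox. The marker that rose in PS medium was PDGFRA, which early mesoderm also expresses, at 713, 865 and 929.6 against 51.8 to 62.6 in untreated cells. Over all 9 arrays PDGFRB measured 316 to 475, TWIST2 297 to 402 and S100A4 130.2 to 223, POSTN reached 785 with Dox, and DCN, LUM and FAP were under 64. Of 9 chondrocyte markers 3 rose and 2 fell in PS medium (33.3% and 22.2%), and 3 rose and 1 fell with Dox (33.3% and 11.1%). Their sums were 3845 to 4102, 2633 to 3434 and 3367 to 4878. Of 10 endothelial and blood markers 2 rose and 1 fell in PS medium (20% and 10%) and 2 fell with Dox (20%). Their sums were 4067 to 4551, 5777 to 6247 and 2825 to 3318. Without their brightest gene, KDR, the others summed to 1779 to 1963, 1766 to 1939 and 1459 to 1574, and the chondrocyte markers without CNMD to 1914 to 2056, 2194 to 2941.5 and 2767 to 4003. These sums and the next counts were added after seeing the data. When Dox replicate 3 was left out, 7 of the 8 streak markers fell with Dox (TBXT at -0.52, limma adjusted p = 0.0774), 2 chondrocyte markers rose, and 3 endothelial and blood markers fell, while the counts of the other marker lists were as above. The Dox sums were then 19058 to 26395 for the streak, 2213 to 2318 for fibroblasts, 3367 to 3615 for chondrocytes, 3266 to 3318 for endothelium and blood, and 29289 to 31147 for amnion and trophectoderm.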

How the data were processed

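Total RNA of 9 samples, 3 per group, was labelled with biotin and hybridised to Affymetrix whole-transcript arrays, per the labels. The deposited values are linear intensities per probe set, from Affymetrix Expression Console 1.1.1 with PLIER 2.0, per the submitters' processing notes; the background correction and normalization were not given in the sources used here. Of 33297 probe sets 19460 had 1 symbol, 1754 several and 12083 none; 19429 were matched by gene number to GRCh38.p14 symbols and 31 kept their own. Each of 18417 genes took its probe set with the highest mean. Values were taken as log2(intensity + 16) and quantile-normalized, because array medians spanned 0.10 (limit 0.1). limma 3.58.1 (R 4.3.3; files read by data.table, version 1.17.8) fitted 1 mean per group over all 9 arrays (eBayes with trend), with Benjamini-Hochberg adjustment over 18417 genes at 0.05; the fit was tested on simulated data. Ratios of chains were tested with scipy 1.17.1, and plots were drawn with matplotlib 3.10.9 (Python 3.11.15).

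The collagen genes, pathway lists and marker lists were chosen with earlier results of these data known. Of 142 list genes 136 were measured. In each comparison, collagen genes past the threshold without overlap of arrays were named, the 12 largest with full values, with partner or neighbouring chains beside them, and up to 4 called genes of the largest change per pathway list. Marker lists are given by counts and sums. Alternatives were the deposited scaling, median centring, log offsets of 1 and 64, a filter on the dimmest 25% of genes, all probe sets, the 2 groups alone, the replicate block, and each array left out.

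Whether replicate numbers pair arrays was checked from correlations of deviations from group means. Same-numbered arrays correlated at 0.245, 0.428 and 0.246 between Dox and PS medium. Between Dox and untreated cells the values were 0.246, 0.309 and 0.297, and between PS medium and untreated cells 0.086, 0.397 and 0.271. Differently numbered arrays were not compared directly. Deviations cancel out within a group, so positive values for same numbers mean negative covariances on average for different numbers. Same-numbered arrays therefore shared part of their deviations, but the labels do not say whether the numbers pair arrays. The main fit left the replicate number out, and the replicate block was run as an alternative.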

Additional observations from a re-analysis of the deposited data

How the results depend on the processing

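No called collagen gene changed direction under any of the 17 alternatives, and no fold moved by over 1.5 times. In PS medium against untreated cells 21 collagen genes were called, and 17 to 23 under the alternatives that kept all arrays. The 17 were of 31 left by the filter on dim genes, where 37% of all genes left were called. For Dox against PS medium the count was 16, and 15 or 16 under the other scalings, offsets and filters. With the 2 groups alone it was 11, the number higher going from 7 to 4. The share of all genes called then fell from 17.3% to 13.3%. For Dox against untreated cells the count was 18, and 15 to 19, where 28.2% to 38.3% of all genes were called. Leaving out 1 array at a time gave 18 to 22 called in PS medium (11 to 12 higher, 7 to 10 lower), 12 to 16 with Dox (4 to 8 higher, 7 to 9 lower, with 4 higher without PS replicate 1) and 13 to 19 for Dox against untreated cells (7 to 11 higher, 5 to 8 lower, with 5 lower without untreated replicate 3). Over the same fits the share of all genes called was 22.6% to 30.6%, 13.1% to 16.7% and 22.6% to 32.7%. With the replicate number as a block 23, 19 and 19 were called, while the share of all genes called rose to 37.7%, 24.3% and 38.3%. COL4A2 (limma adjusted p = 0.0443) and COL4A5 (0.0142) were added in PS medium. Same-numbered arrays shared part of their deviations, but the labels do not say whether replicate numbers pair arrays. Values near background are a limit for the 4 dim genes, and 3 arrays per group limit all tests. Probe sets of a chain were not compared in level with those of another.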
